A study of Mus musculus with 8 samples.

Results

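Immunoglobulin heavy-chain V segments were read in RNA libraries made from CD8+ T cells. The 185 entries of the deposited table whose gene name begins with Ighv and a digit were taken, of 47493 entries in all, and they carry 183 different names, since Ighv5-8 and Ighv1-13 are each listed more than once. GENCODE release M21, which describes the mm10 genome used by the authors, lists all 185 on chromosome 12, with 113 annotated as V genes, 70 as V pseudogenes and 2, the second entries of Ighv5-8 and Ighv1-13, as IG_LV_gene entries on the opposite strand. The libraries came from 4 female C57BL/6 mice aged 6 to 8 weeks that bore B16-F10 melanoma (200000 cells on day 0). Every mouse received cyclophosphamide (300 mg/kg, day 3), Thy1.1 Pmel-1 T cells specific for a melanoma antigen (2000000 cells, day 5), IL-2 (10000 IU a day for 3 days) and anti-CD4 antibody (200 μg weekly for 3 weeks from day 10), so no library comes from an untreated mouse. On day 25, CD8+ cells lacking Thy1.1 were taken from inguinal lymph nodes and spleen with magnetic beads and split on a column by an IL-18Rα antibody. Retained cells gave the 4 IL-18Rαhi-enriched libraries and passing cells the 4 flow-through libraries, numbered 1 to 4, and each mouse supplied both fractions. Equal numbers are taken below as the same mouse, which the labels do not state outright.

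An antibody heavy chain is assembled in a developing B cell by joining a V segment to a D and a J segment in the DNA, so that each B cell and its descendants transcribe one chosen V segment. Resting B cells hold modest amounts of this RNA, while plasma cells, the antibody-secreting end stage, hold very large amounts. T cells join the segments of their own receptor genes and are not known for heavy-chain V transcripts. Segments are grouped by sequence likeness into families, named by the digits before the hyphen. Ighv11 and Ighv12 are known from B-1 cells, a self-renewing B-cell lineage whose antibodies bind phosphatidylcholine.

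The 6 members on which the results turn are shown, each as the final 300 bases of its V exon, read from the GENCODE M21 transcripts on the minus strand of mm10. Capitals mark bases that differ from the most similar other member of the class. The first 4 are shown because each held its highest shares in the libraries of 1 mouse, Ighv1-26 was high in every library, and Ighv11-2 carried nearly the whole of its family.
Ighv3-1: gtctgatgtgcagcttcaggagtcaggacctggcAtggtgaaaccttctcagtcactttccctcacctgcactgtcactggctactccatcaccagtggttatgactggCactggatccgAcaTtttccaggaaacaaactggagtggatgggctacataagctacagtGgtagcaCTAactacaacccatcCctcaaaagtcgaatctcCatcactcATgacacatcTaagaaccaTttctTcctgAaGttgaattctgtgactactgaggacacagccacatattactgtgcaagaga
Ighv1-9: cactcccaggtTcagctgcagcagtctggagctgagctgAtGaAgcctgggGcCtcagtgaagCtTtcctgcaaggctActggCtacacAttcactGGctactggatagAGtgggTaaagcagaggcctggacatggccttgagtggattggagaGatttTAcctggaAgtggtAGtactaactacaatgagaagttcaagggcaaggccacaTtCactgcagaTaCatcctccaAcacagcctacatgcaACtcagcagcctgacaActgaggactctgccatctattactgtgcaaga
Ighv1-52: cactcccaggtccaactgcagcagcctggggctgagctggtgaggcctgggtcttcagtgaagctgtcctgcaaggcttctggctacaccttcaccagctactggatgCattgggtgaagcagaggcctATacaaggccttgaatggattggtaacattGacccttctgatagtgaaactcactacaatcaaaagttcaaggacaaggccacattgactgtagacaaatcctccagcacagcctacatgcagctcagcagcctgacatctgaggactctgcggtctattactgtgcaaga
Ighv1-74: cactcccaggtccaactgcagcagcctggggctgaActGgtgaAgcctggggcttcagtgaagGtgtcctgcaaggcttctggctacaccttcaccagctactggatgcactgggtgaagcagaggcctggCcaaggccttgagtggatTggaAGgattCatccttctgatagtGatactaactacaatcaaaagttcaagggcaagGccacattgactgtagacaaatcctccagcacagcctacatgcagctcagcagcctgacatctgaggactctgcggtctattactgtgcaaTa
Ighv1-26: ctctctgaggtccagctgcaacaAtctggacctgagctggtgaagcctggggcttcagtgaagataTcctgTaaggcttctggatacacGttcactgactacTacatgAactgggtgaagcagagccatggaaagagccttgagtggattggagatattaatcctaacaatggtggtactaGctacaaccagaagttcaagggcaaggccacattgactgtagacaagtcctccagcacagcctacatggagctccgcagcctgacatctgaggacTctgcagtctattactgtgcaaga
Ighv11-2: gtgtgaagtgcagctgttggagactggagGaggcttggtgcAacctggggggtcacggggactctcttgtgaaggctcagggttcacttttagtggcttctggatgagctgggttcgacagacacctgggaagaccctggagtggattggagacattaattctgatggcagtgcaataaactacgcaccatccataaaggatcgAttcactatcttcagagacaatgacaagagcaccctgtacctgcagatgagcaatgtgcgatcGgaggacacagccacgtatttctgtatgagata
The windows lie at chr12:113964388-113964687 (Ighv3-1), chr12:114583569-114583868 (Ighv1-9), chr12:115145487-115145786 (Ighv1-52), chr12:115802648-115802947 (Ighv1-74), chr12:114788372-114788671 (Ighv1-26) and chr12:114048241-114048540 (Ighv11-2), all within the coding V exon. Ighv3-1 and Ighv1-9 are the most distinct of the 6, with 94.0% and 90% identity to their nearest relatives Ighv3-2 and Ighv1-63. Ighv1-74 shares 96% with Ighv1-69 and Ighv1-26 shares 97.3% with Ighv1-18. Ighv1-52 and Ighv11-2 differ from Ighv1-61 and Ighv11-1 at only 4 positions each (98.7% identity). Of the 100-base stretches of Ighv1-52, 29.4% occur unchanged in another member, against 17.4% for Ighv11-2, 7.94% for Ighv1-26 and 0% for Ighv3-1, Ighv1-9 and Ighv1-74, so the division of reads between Ighv1-52 and its relatives is the least certain. Among the 115 members without a pseudogene annotation, the median identity to the nearest relative was 95.3%, and 38 share a stretch of 100 bases with another member.

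The depth of the 8 libraries was estimated at 14517000 to 17252000 fragments. Counted over its full length, a segment of median length (351 bases) at 1 FPKM equals about 5.10 to 6.06 fragments. Ighv1-28 and Ighv1-21-1, both of 351 bases, were above 0 in 1 library each, at 0.431 and 0.433 FPKM. If such a value is 1 fragment, 1 FPKM rests on fewer fragments than that estimate. The T-cell label held in every library: all 8 genes of a CD8 T-cell list (such as Cd3e and Cd8a) were present, and the flow-through libraries summed to 1280 to 2427 FPKM over it, the enriched libraries to 2403 to 2578 FPKM. Flow-through 1 stood apart at the bottom of that range. The Ighv members nevertheless made up 0.652% to 3.41% of all FPKM in a library.

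In total, 124 members had any signal and 61 were listed at 0 in every library. Of these 61, 51 were pseudogenes, 2 were the opposite-strand entries and 8 were V genes (Ighv5-12-4, Ighv7-2, Ighv16-1, Ighv6-7, Ighv1-16, Ighv1-24, Ighv1-62-1 and Ighv8-13). A mean of at least 1 FPKM over the 8 libraries was reached by 99 members, 98 of them V genes, and the one pseudogene among them was Ighv1-2 with a mean of 1.46 FPKM. Pseudogenes together held 0.0096% to 0.0664% of the class sum. The RNA was thus almost wholly that of segments annotated as V genes.

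The summed level of the class differed widely among mice. In flow-through libraries 1 to 4 it was 4285, 19382, 7636 and 13040 FPKM. In enriched libraries 1 to 4 it was 7355, 23902, 13774 and 19360 FPKM. Mouse 2 was highest and mouse 1 lowest in both fractions, and the fractions overlapped. Within each mouse the enriched fraction was higher, by 1.72, 1.23, 1.80 and 1.48 times for numbers 1 to 4. The flow-through mean was 11086 ± 6603 FPKM and the enriched mean 16098 ± 7150 FPKM (SD, n = 4), and the ratio of geometric means was 1.54. An exact two-sided permutation test on log2 sums gave p = 0.314 (0.771 after Benjamini-Hochberg adjustment over 5 such values, n = 4 per fraction). With the mice as pairs, all 4 pointed the same way, and the exact sign-flip permutation test gave p = 0.125, the smallest that 4 pairs allow. Without flow-through 1, the difference of the mean log2 sums went from 0.63 to 0.24, and with the libraries scaled to equal CD8 T-cell RNA it was 0.28. In such bulk samples, more cells of a type and more RNA per cell cannot be told apart.

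**Figure D1:**
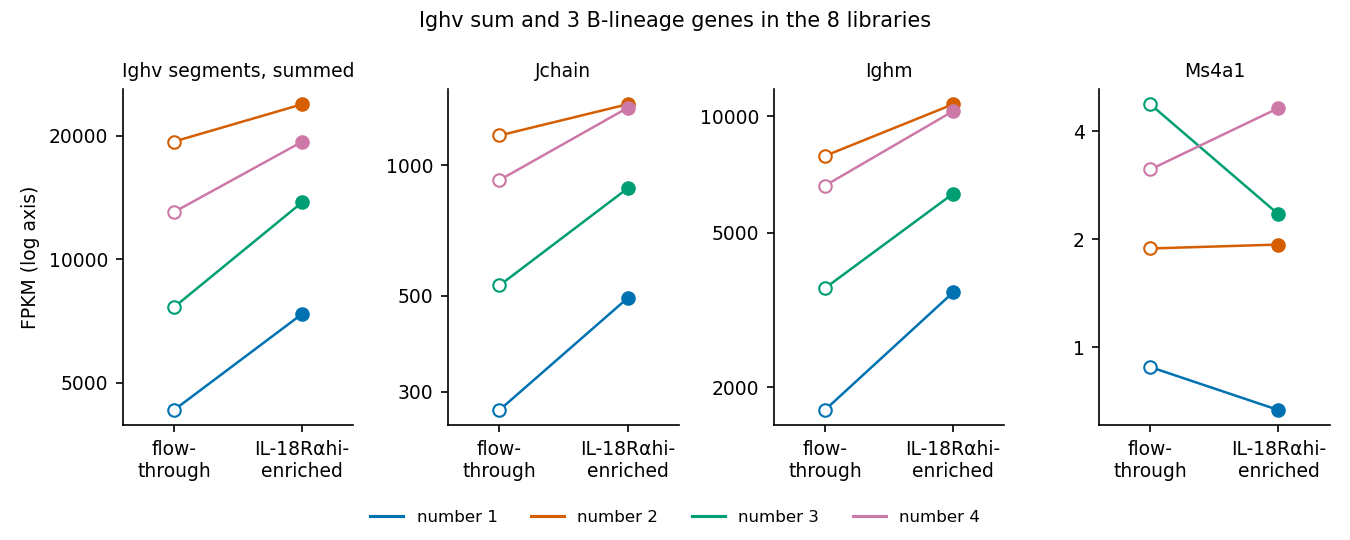
Summed FPKM of the Ighv members and FPKM of Jchain, Ighm and Ms4a1 (log axes) in flow-through (open) and IL-18Rαhi-enriched (filled) libraries, with a line joining the libraries of a mouse. The Ighv sum rises along all 4 lines, from 4285 to 7355 FPKM in mouse 1 and from 19382 to 23902 FPKM in mouse 2, and Jchain and Ighm keep the same order of mice, whereas Ms4a1 does not.

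Some other antibody RNA kept a nearly fixed ratio to the Ighv sum, and some did not. Jchain, which encodes the chain that links polymeric IgM and IgA and marks plasma cells, was at 272, 1171, 528 and 923 FPKM in flow-through libraries 1 to 4, and at 493, 1381, 883 and 1355 FPKM in the enriched ones. The Ighv sum divided by Jchain stayed between 14.1 and 17.3 in the 8 libraries, while the sum itself ranged over 5.58 times. This ratio averaged 15.2 ± 1.13 for flow-through libraries and 15.5 ± 1.30 for enriched ones (SD, n = 4), a difference smaller than the spread. The Ighv sum was likewise 1.88 to 2.45 times Ighm (the IgM constant region) and 1.08 to 1.39 times Igkc (the κ constant region). It was less steady against Igha (5.35 to 12.7 times), the IgA constant region. Against the constant regions of IgG the ratio ranged over 2.45 times for Ighg3, 4.27 times for Ighg2c, 4.90 times for Ighg2b and 7.12 times for Ighg1, and over 14.8 times for Ighd. Ighg1 had a mean of 12.3 ± 13.4 FPKM in the flow-through libraries and 7.13 ± 5.20 FPKM in the enriched ones (SD, n = 4), and Ighg2b of 346 ± 382 and 277 ± 270 FPKM.

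Genes of B cells that are not plasma cells were mixed in this respect. The Ighv sum per Fcrla, a B-cell gene, ranged over 1.74 times. This was less than per the plasma-cell genes Xbp1 (2.04 times) and Tnfrsf17 (2.35 times), but more than per Jchain (1.23 times). Plasma-cell genes thus lay on both sides of Fcrla. For Cd79b and Cd79a, the signalling chains of the B-cell receptor, the ratio ranged over 2.499 and 3.264 times. Ms4a1, which encodes CD20 and is largely lost by plasma cells, was at 0.880, 1.88, 4.76 and 3.13 FPKM across the flow-through libraries, against 0.668, 1.93, 2.35 and 4.64 FPKM across the enriched ones. The Ighv sum per Ms4a1 therefore ranged over 7.71 times, and mouse 2, highest in Ighv, was not highest in Ms4a1. Pax5, the B-cell identity factor, lay between 0.0775 and 1.68 FPKM. Of the 8 genes listed for pro-B and pre-B cells, Rag1 and Rag2, the recombinase genes, stayed under 0.2 FPKM and Vpreb2 was listed at 0 in 7 libraries. Others of that list were present: Dntt lay between 1.27 and 3.92 FPKM, Vpreb1 between 0.212 and 0.596 FPKM, and Vpreb3 reached 1.81 FPKM. The sums over J segments (Ighj) and D segments (Ighd and a digit), which are far shorter than a read pair, were listed at 0 in every library.

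The lists for these cell types were chosen with earlier results of these data known and are given as counts from limma on log2(FPKM + 1), with an adjusted p under 0.05. Of 12166 genes tested, 14.1% were higher in the enriched fraction and 13.7% lower, with a median log2 fold change of -0.02. Of 11 plasma-cell genes, all 11 were tested, 2 were higher (Prdm1 and Irf4, which activated T cells also express), none was lower and the median log2 fold change was 0.70. Flow-through libraries summed to 409 to 1471 FPKM over this list and enriched libraries to 729 to 1785 FPKM. Of 12 B-cell genes, 9 were tested, 1 was higher (Cd22, an inhibitory co-receptor) and the median was 0.24, with sums of 30.6 to 78.9 FPKM against 47.9 to 104 FPKM. Of 8 germinal-centre genes, 6 were tested and 3 were higher (Mybl1, S1pr2 and Gcsam), with sums of 15.3 to 28.4 FPKM against 31.0 to 40.7 FPKM. The rest of those tested were not called, and Rgs13 of this list did not exceed 0.0837 FPKM in any library. None of the 7 tested heavy-chain constant genes or the 4 light-chain constant genes was called, at medians of -0.17 and 0.64. Of the pro-B and pre-B list, only Il7r and Dntt were tested and neither was called. In the CD8 T-cell list 1 of 8 was higher (Zap70), with a median of 0.38. Once the mouse number was blocked, 22.2% of all genes were higher and 22.7% lower. With that block, 10 of the 11 plasma-cell genes, all 4 light-chain constant genes and 2 heavy-chain constant genes (Ighm and Igha) were higher. Ighd, the constant region of the IgD of resting B cells, and Dntt, which adds bases at V, D and J joints, were lower. Among the 9 tested B-cell genes the block gave 4 higher and 1 lower (Cr2). It gave 4 higher among the 6 tested germinal-centre genes and 1 higher among the 8 CD8 T-cell genes. The part of these cells in the Ighv values was not tested.

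Single Ighv members were rarely called without regard to the mouse. Of the 99 members tested, 2 were higher in the enriched fraction (14.1% of all genes were), 1 was lower (13.7% of all genes were), and 6 had an unadjusted p under 0.05. The median log2 fold change was 0.57, and 88 of 99 values were above 0. The libraries of one fraction differed so much among mice that even Ighv1-26, at 295, 1291, 571 and 895 FPKM in flow-through libraries and 475, 1473, 854 and 1100 FPKM in enriched ones, gave an adjusted p of 0.526 in limma.

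The called members were all of low share. Ighv8-5 was at 55.7, 83.9, 59.4 and 77.2 FPKM in flow-through libraries and 102, 143, 101 and 97.2 FPKM in enriched ones, without overlap (log2 fold change 0.67 ± 0.17 SE, limma adjusted p = 0.0203). Ighv9-1 was at 13.0, 15.8, 21.8 and 13.3 FPKM against 18.1, 30.1, 34.1 and 35.9 FPKM, with an overlap (0.83 ± 0.23 SE, limma adjusted p = 0.0307). Ighv1-49 went the other way, at 1.505, 2.28, 1.90 and 8.42 FPKM against 0, 0.910, 0.443 and 0 FPKM, and fell by 1.59 on the log2 scale (SE 0.42, limma adjusted p = 0.0253). The enriched values of Ighv1-49 correspond to a few fragments or none, and its log2 change depends on the pseudocount. Ighv1-49 passed the filter only through the flow-through libraries (mean 3.53 FPKM, against 0.338 FPKM in the enriched ones), so its call carries little weight. The calls of Ighv9-1 and Ighv8-5 were lost when libraries were scaled to equal CD8 T-cell RNA (adjusted p = 0.208 and 0.227 in limma). Without the filter on low genes Ighv9-1 and Ighv1-49 lost theirs, and each of the 3 lost its call without some single library: Ighv9-1 without flow-through 1, 2 or 4 or enriched 2, 3 or 4 (limma adjusted p = 0.0508 to 0.0844), Ighv1-49 without enriched 1, 3 or 4 (0.0535 to 0.0695) and Ighv8-5 without flow-through 3 (0.0611).

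With the mouse number as a block, 65 of the 99 members were higher (22.2% of all genes were) and 2 were lower (22.7% of all genes were), namely Ighv1-49 and Ighv1-56. The fold changes are those of the fit without the block, and only their error differs. Among the most abundant members, Ighv1-26 then showed a limma log2 difference of 0.44 with SE 0.10 (adjusted p = 0.0121), Ighv6-3 of 0.76 with SE 0.13 (adjusted p = 0.00415) and Ighv1-53 of 0.65 with SE 0.09 (adjusted p = 0.00222). The flow-through of mouse 1 was also low in CD8 T-cell genes, and after scaling to equal CD8 T-cell RNA, which moved the median of all genes from -0.02 to -0.33, the members' median was 0.22. Under that scaling with the block, 5 members were higher (5.23% of all genes were) and 3 lower (18.7% of all genes were).

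The mice differed in how far the class rose. In mouse 1, 86 of 99 members were higher in the enriched fraction, with a median difference of 0.67 on the log2(FPKM + 1) scale. In mouse 2, 75 were higher and the median was 0.29. In mouse 3, 86 were higher with a median of 0.84, and in mouse 4, 87 with a median of 0.44. Together, 61 members were higher in all 4 mice and 2 in none. Like counts over all genes are not given here. The members of a library also share its class level, so these counts are a description and not independent results.

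**Figure D2:**
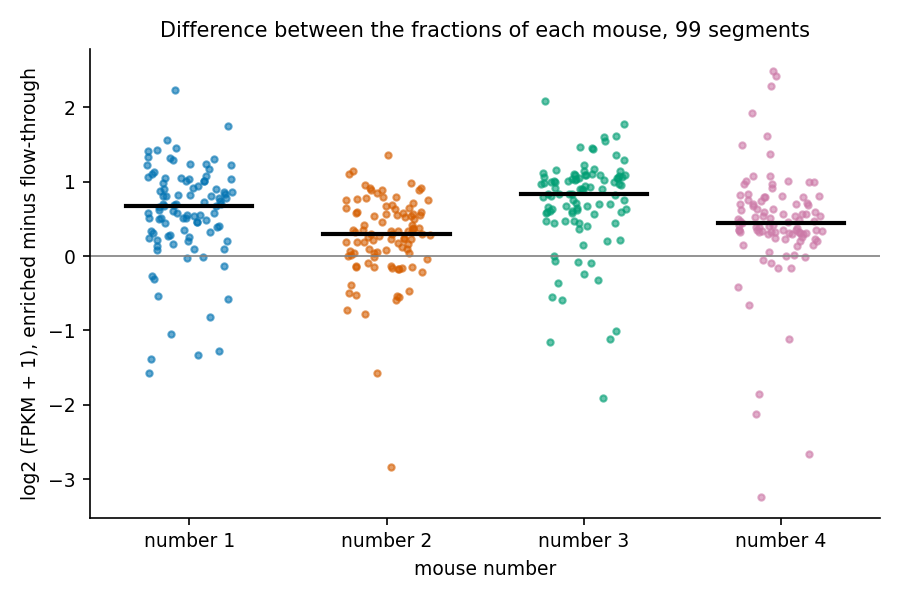
Difference of log2(FPKM + 1) between the enriched and flow-through libraries of each mouse for the 99 members with a mean of at least 1 FPKM, 1 point per member, with the median as a black bar. The medians lie at 0.67, 0.29, 0.84 and 0.44 for mice 1 to 4, and most points of every mouse lie above 0.

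The composition of the class followed the mouse. The share of a segment is its FPKM as a percent of the Ighv sum of its library, which removes the overall level. The same segment led both fractions of each mouse: Ighv3-1 in mouse 1, Ighv1-9 in mouse 2, Ighv1-26 in mouse 3 and Ighv1-74 in mouse 4.

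Ighv1-74 showed the widest contrast among these leaders. Its share was 13.7% of the flow-through and 19.4% of the enriched sum of mouse 4. In mice 1 to 3 it was 0.730%, 0.539% and 1.11% of the flow-through and 0.896%, 0.866% and 1.24% of the enriched libraries. In FPKM, mouse 4 had 1785 and 3760, and no other library exceeded 207. The nearest relative, Ighv1-69, did not share this pattern and stayed between 0.679% and 1.60% in all 8 libraries.

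Ighv3-1 stood out in mouse 1. Its share was 9.50% (flow-through) and 10.3% (enriched) in mouse 1, 2.33% and 2.15% in mouse 2, 1.01% and 1.12% in mouse 3, and 1.102% and 0.920% in mouse 4. Because mouse 1 had the smallest class sum, its 407 FPKM of Ighv3-1 in the flow-through was below the 452 FPKM of mouse 2. In the enriched fraction mouse 1 was also highest in level, with 759 FPKM against 514, 155 and 178 FPKM in mice 2 to 4. The pseudogene Ighv3-2, the closest in sequence, held at most 0.00826% in any library.

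Mouse 2 had a pair of prominent segments. Ighv1-9 held 12.8% of its flow-through and 12.9% of its enriched sum, against 5.22% and 5.55% in mouse 1, 2.08% and 1.58% in mouse 3 and 2.34% and 1.82% in mouse 4. Ighv1-52 held 7.02% and 6.97% in mouse 2, 0.828% and 0.913% in mouse 1, 0.916% and 0.828% in mouse 3 and 2.03% and 1.74% in mouse 4. For both segments, the 2 libraries of mouse 2 were nearly equal and lay above every other library. Ighv1-61, which differs from Ighv1-52 at 4 positions of the window, stayed between 0.410% and 0.736%.

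Other abundant segments were shared by all mice. Ighv1-26 had the highest mean share of the class (6.55%), at 6.89%, 6.66%, 7.48% and 6.86% of the flow-through and 6.46%, 6.16%, 6.20% and 5.68% of the enriched sums. All 4 enriched values lay below all 4 flow-through values. Shares of single members were not tested between the fractions, and how many other members separate in this way is not given here. Ighv6-3 ranged from 3.85% to 5.86% and Ighv1-53 from 3.29% to 5.19%. None of these differed among mice by as much as the leaders of mice 1, 2 and 4.

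**Figure D3:**
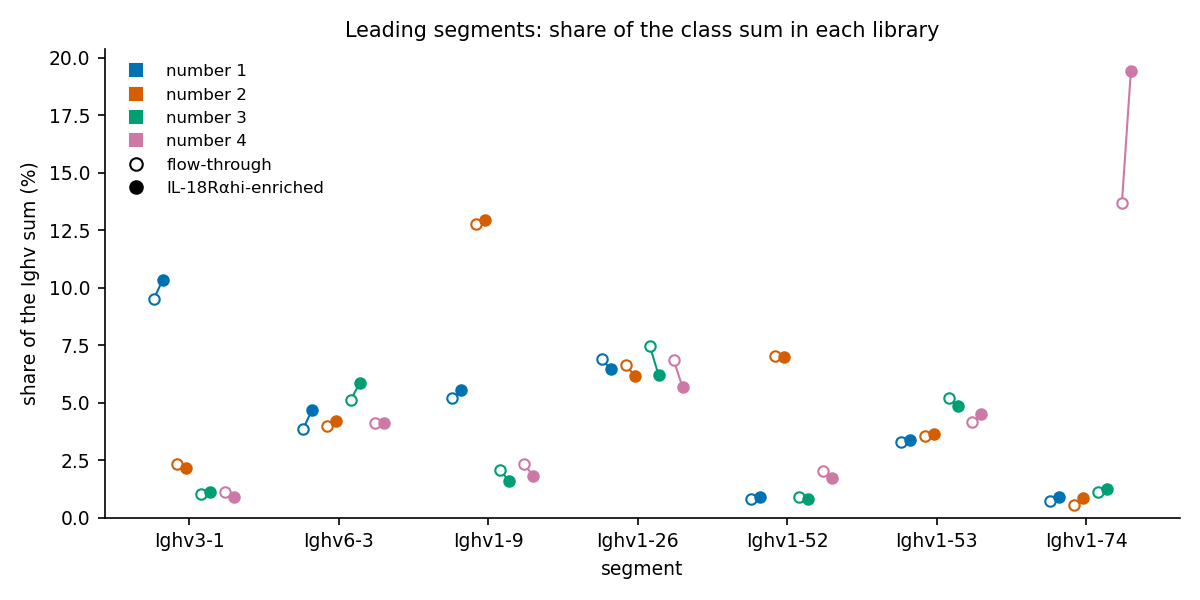
Share of the Ighv sum (%) of the 7 segments that ranked among the top 3 of any library, in flow-through (open) and IL-18Rαhi-enriched (filled) libraries, coloured by mouse number. Ighv1-74 reaches 13.7% and 19.4% in mouse 4 and stays at or under 1.24% elsewhere, while Ighv1-26 lies between 5.68% and 7.48% in all 8 libraries.

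A test of differences among the mice, added after the data were seen, used the limma F test on the mouse number with the fraction in the model. Of the 99 members, 81 differed among mice at an adjusted p under 0.05, where 8.75% of all genes did. This test is on the FPKM level and so includes the differences of the class sum between mice. Ighv1-74 had an adjusted p of 4.72e-06, Ighv1-52 of 0.000235, Ighv1-9 of 0.000316 and Ighv3-1 of 0.00249. On shares, which are free of the class sum, the highest of the mice exceeded the lowest by a median of 1.89 times over the 88 members above 0 in every library, and by 23.6 times for Ighv1-74. Between the fractions of the same mouse the median ratio was 1.23, an average over the mice for each member. The 1.89 instead sets the highest mouse against the lowest, which tends to give a larger ratio by construction. These medians therefore do not show whether mice differed more than fractions.

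Few members had a mouse-bound share by the limit used here. Only 4 members had a share in both fractions of a mouse of at least 3 times the highest value in the other mice, a limit set after the values were seen. They were Ighv3-1 and Ighv1-47 in mouse 1, Ighv1-52 in mouse 2 and Ighv1-74 in mouse 4, and mouse 3 had none. Ighv1-47 held 1.08% and 1.03% in mouse 1 and at most 0.296% elsewhere.

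The overlap of a pair of libraries, the sum over segments of the smaller share, gave the same picture for the whole class. It was 90.8%, 92.8%, 91.5% and 89.9% between the fractions of mice 1 to 4. Across fractions of different mice it was 71.2% to 80.5% (12 pairs), and within a fraction 72.3% to 81.1% (12 pairs). Each of the 8 libraries was closest to the other library of its own mouse. Without the 4 mouse-bound members, the overlap was 90.1% to 92.3% within a mouse and 75.7% to 88.0% across mice and fractions. The pairs share libraries, so these values are a description.

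**Figure D4:**
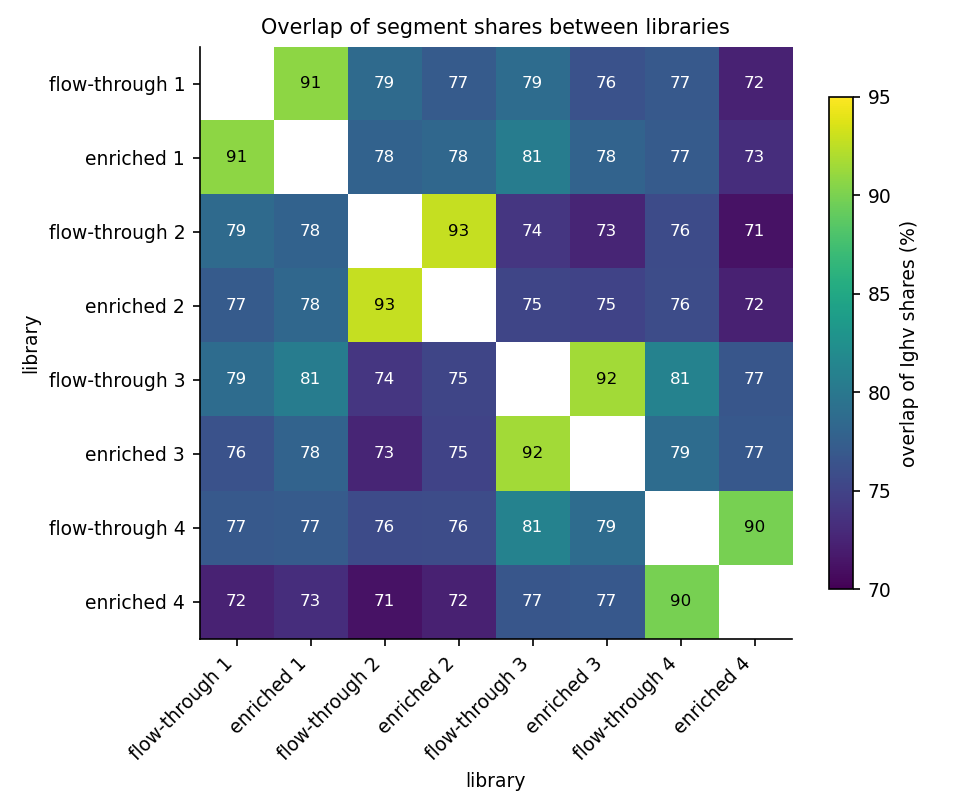
Overlap of Ighv segment shares (%) for every pair of the 8 libraries, ordered by mouse number with the flow-through first. The 4 pairs from the same mouse lie at 89.9% to 92.8% and every other pair at 71.2% to 81.1%.

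The κ light-chain V segments (Igkv, 160 entries) showed a like pattern, at 86.0% to 91.8% within a mouse and 67.7% to 84.8% across mice and fractions, and all 8 libraries were closest to their own mouse. The T-cell receptor segments of the same libraries did not: for Trav (128 entries) the overlap was 78.5% to 82.2% within a mouse and 76.3% to 82.0% across, with 3 of 8 libraries closest to their own mouse. For Trbv (35 entries) it was 88.0% to 91.4% and 86.8% to 91.1%, with 2 of 8. Within a fraction the overlap was 75.5% to 86.1% for Trav and 84.8% to 95.3% for Trbv, against 70.6% to 83.3% for Igkv. For Trav and Trbv the highest within-fraction values thus exceeded those within a mouse. The difference between these classes was not tested.

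By family, Ighv1 held the largest part of the class in every library, from 42.0% to 56.4% of the sum, and it also has the most entries (93, of which 49 reached a mean of 1 FPKM). Ighv3, of 8 entries, held 14.4% and 14.3% in mouse 1 and 5.54% to 6.80% in mice 2 to 4. Ighv6 (6.34% to 8.60%), Ighv2 (5.48% to 6.96%), Ighv5 (4.30% to 7.60%) and Ighv8 (2.70% to 7.74%) came next. Ighv8 was highest in both fractions of mouse 3. Ighv15 held at most 0.0116% and Ighv16 was listed at 0.

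The mean share differed most between the fractions in Ighv11, a family known from B-1 cells, by -1.18 percentage points (enriched minus flow-through). Its share was 4.71%, 5.19%, 3.44% and 3.73% in flow-through libraries 1 to 4, against 3.18%, 3.87%, 2.53% and 2.78% in the enriched ones. It was lower in the enriched fraction of all 4 mice, though the groups overlapped (4.27% ± 0.82 against 3.09% ± 0.58, SD, n = 4). The exact two-sided permutation test gave p = 0.0857, and 0.5 after adjustment over 15 families (n = 4 per fraction). Almost all of it was Ighv11-2, at 201, 1006, 263 and 486 FPKM in flow-through libraries and 232, 920, 348 and 538 FPKM in enriched ones. Its level was not called in limma (log2 fold change 0.16 ± 0.56 SE, adjusted p = 0.854, and 0.212 with the block), so the lower share was set against a class sum that was higher in every mouse. Its close relative Ighv11-1 did not exceed 4.10 FPKM.

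Ighv12, the other family of that kind, varied among mice: Ighv12-3 was at 47.5, 228, 10.8 and 43.1 FPKM in flow-through libraries and 51.0, 161, 22.7 and 52.9 FPKM in enriched ones. The family share was 1.11%, 1.18%, 0.141% and 0.330% against 0.702%, 0.675%, 0.165% and 0.279%. It was lower in the enriched fraction of 3 of 4 mice (exact permutation p = 0.457, n = 4 per fraction).

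Ighv4 (p = 0.0857) and Ighv8 (p = 0.657) were higher in the enriched fraction of all 4 mice, and Ighv13 (p = 0.114), Ighv7 (p = 0.2) and Ighv14 (p = 0.686) lower in all 4, by the same exact permutation test with n = 4 per fraction. No family passed, adjusted or unadjusted, in either the permutation test or the sign-flip test, whose smallest possible p are 0.0286 and 0.125. Of the 99 members, 8 had a higher share in the enriched fraction of all 4 mice and 12 a lower one. With only 16 sign patterns over 4 mice, some members agree in all 4 by chance alone. These counts were not tested.

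**Figure D5:**
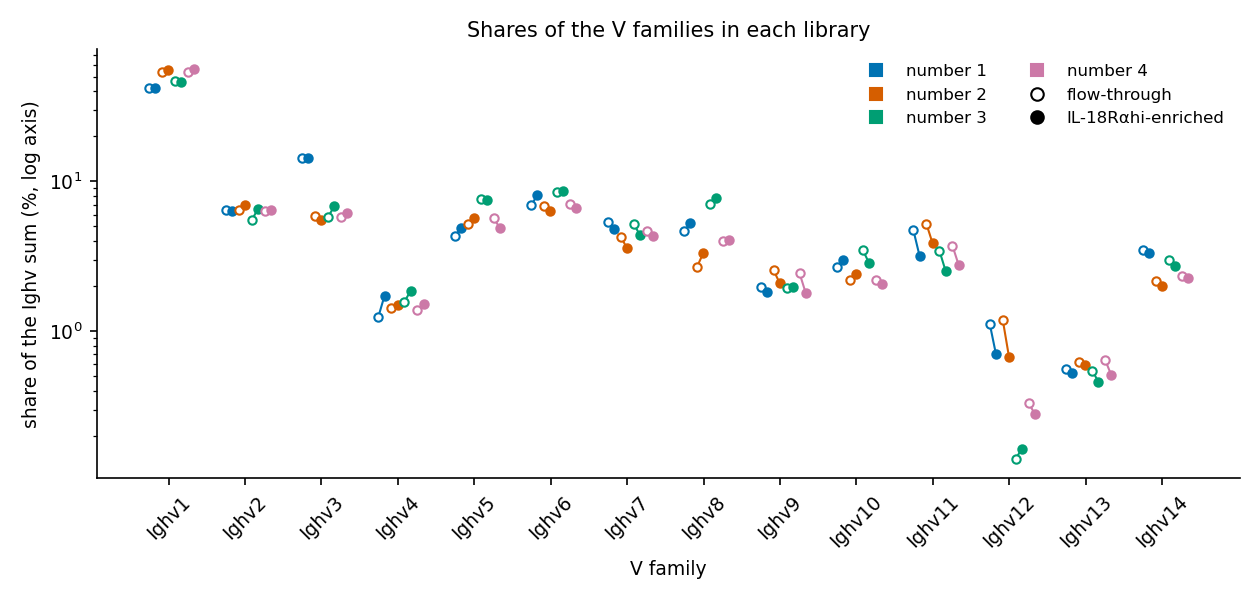
Share of the Ighv sum (%, log axis) of the 14 V families above 0.1% in any library, in flow-through (open) and IL-18Rαhi-enriched (filled) libraries, coloured by mouse number. Ighv11 falls along all 4 lines, from 4.71% to 3.18% in mouse 1, and Ighv3 lies at 14.4% and 14.3% in mouse 1 against 5.54% to 6.80% in the other mice.

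Measures of breadth did not separate the fractions. Shannon evenness of the shares, which is 1 when all 185 entries are equal, was 0.751, 0.731, 0.766 and 0.738 for flow-through libraries and 0.749, 0.736, 0.770 and 0.713 for enriched ones. The leading segment held 10.9% ± 2.88 of the flow-through and 12.2% ± 5.54 of the enriched sums (SD, n = 4). Members at 1 FPKM or more numbered 91, 98, 94 and 96 against 91, 101, 94 and 99. Segments farther from the D and J segments than the median member held 40.0%, 41.4%, 49.7% and 53.4% against 39.3%, 43.5%, 50.1% and 57.2%. For each of these the fractions overlapped, and the exact permutation p were 0.771, 0.743, 0.657 and 0.771 (n = 4 per fraction, 0.771 each after adjustment over 5 values). The position share followed the mouse, with mouse 4, led by the distal segment Ighv1-74, highest in both fractions.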

How the data were processed

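Poly(A) RNA of 8 libraries was sequenced as paired 150-base reads. The authors mapped reads to mm10 with TopHat, and deposited FPKM values from Cufflinks 2.1.1, with corrections for multiply mapping reads and fragment bias. The annotation release is not given in the sources used here. Members were selected by name, and members and lists were chosen with earlier results of these data known. Named segments were those among the 3 highest shares of any library or with a limma adjusted p under 0.05. Identifiers were matched to GENCODE M21, and similarity was computed with Biopython 1.88. Depth was estimated from genes under 0.2 FPKM that have only 1 transcript, of 1500 bases or more.

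The 12166 genes whose mean reached 1 FPKM were tested with limma 3.58.1 (trend) in R 4.3.3 on log2(FPKM + 1), tested first on simulated data, with Benjamini-Hochberg adjustment. Fold changes on this scale understate low genes. Values summed per library were tested by two-sided exact permutation (70 arrangements, smallest p 0.0286). Equal replicate numbers were taken as the same mouse: the labels say that each mouse gave both fractions, but not outright that numbers mark mice. Deviations from the fraction means correlated by 0.308 to 0.660 between libraries of the same number (4 pairs) and by -0.600 to 0.412 between different numbers (12 pairs). These ranges overlap: the pair of number 3 gave 0.308, below the 0.412 of flow-through 2 with enriched 4. Alternatives were other pseudocounts and filters, the mouse as a block, scaling to CD8 T-cell RNA, V genes alone and leaving out each library. FPKM carry no counts, so no counting interval was used. A list gene is not reported here by name, and list counts and sums include it.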

Additional observations from a re-analysis of the deposited data

Results flagged for a closer look

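Among 62 sets of 4 libraries examined (the single values, family shares and named segments' shares of each fraction), 9 had a library that Dixon's criterion separates from the remaining 3. Chance alone gives about 1 in 20 sets, but that rate does not apply to the named segments, which were chosen for a high share in some library, nor to the Ighv3 family, which holds Ighv3-1. In mouse 1, the Ighv3-1 share was 9.50% in the flow-through (others 1.01% to 2.33%) and 10.3% in the enriched library (others 0.920% to 2.15%), and the Ighv3 family share was 14.4% (others 5.77% to 5.86%) and 14.3% (others 5.54% to 6.80%), which includes Ighv3-1. In mouse 2, the Ighv1-52 share of the enriched library was 6.97% (others 0.828% to 1.74%). In mouse 4, the Ighv1-74 share was 13.7% in the flow-through (others 0.539% to 1.11%) and 19.4% in the enriched library (others 0.866% to 1.24%). In the flow-through of mouse 3, the Ighv2 family share was 5.48% (others 6.30% to 6.45%) and the Ighv6 family share was 8.44% (others 6.89% to 7.10%). The sets are not independent, since a segment's share counts in its family and the fractions come from the same mice.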

How the results depend on the processing

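Of the 99 Ighv members, 2 were higher and 1 lower in the fit without a block. With the mouse as a block these counts were 65 and 2, with CD8 T-cell scaling 0 and 1 (5 and 3 with scaling and block together, added after seeing the data), without a filter 1 and 0, and with a mean of at least 5 FPKM 2 and 0. Without each library in turn they were 1 to 5 and 0 to 2. Over all genes, 1720 higher and 1664 lower became 2705 and 2763 with the block and 542 and 1082 with the scaling (636 and 2278 with both), and 1124 to 1802 and 940 to 1781 without each library. Counts of list genes, 7 higher and 0 lower, became 25 and 3 with the block and 4 and 1 with the scaling. The median of all genes moved from -0.02 to -0.33 under the scaling. Leaving out each library moved the enriched minus flow-through difference of the leading share from -1.04 to 3.37 percentage points (negative without enriched 4), of evenness from -0.0141 to 0.00494 (positive without flow-through 3 or enriched 4), of members at 1 FPKM from -0.0833 to 3.25 (negative without enriched 2) and of the distal share from -1.81 to 4.14 points (negative without flow-through 1, flow-through 2 or enriched 4). None of these passed a test in any setting. The log2 fold change without the block ranged from -0.36 to 1.33 for Ighv1-9 (negative without enriched 2), from -0.34 to 1.55 for Ighv1-52 (negative without flow-through 1 or enriched 2) and from -0.18 to 2.21 for Ighv1-74 (negative without enriched 4). The log2 class sum stayed higher in the enriched fraction in every setting, at 0.24 to 0.97 without each library. The members differing among mice numbered 66 to 83 without each library. The mean overlap within a mouse exceeded that across mice and fractions by 15.2 points for segments and 7.71 points for families, by which 4 of 8 libraries were closest to their own mouse and the ranges overlapped (96.0% to 96.8% within, 84.6% to 96.4% across). No family passed in any setting. For the single values and families the block was the sign-flip test. Its smallest possible p is 0.125, so it could give no call there. Depth limits members near 1 FPKM, where a value rests on about 5.10 to 6.06 fragments by full length, and may rest on fewer.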
